A study of Mus musculus with 55 samples.

Results

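The LIM homeobox genes Lhx1, Lhx2, Lhx3, Lhx4, Lhx5, Lhx6, Lhx8, Lhx9, Lmx1a and Lmx1b were followed through bulk RNA-seq of mouse islets that lose Eed, a core subunit of Polycomb repressive complex 2 (PRC2), in β cells. They were chosen by name with earlier results of these data known, as were the other gene lists below. Shares called are therefore set beside those of all genes as a description, not as an independent test. All 10 genes were found among the 47937 genes counted in 16 libraries. All libraries were made from whole islets of male C57B6/J mice, so they hold every islet cell type and not β cells alone. Wild-type (WT) islets gave 3 libraries at 8 weeks and 3 at 25 weeks of age. Heterozygous (HET) islets gave 3 and 2. Islets labelled Eed -/-, called βEedKO here, gave 3 and 2. In βEedKO mice a Cre transgene driven by a rat insulin promoter (RIP-cre) removes floxed Eed, so the other islet cells keep the gene. Libraries held islets of 1-2 animals at 8 weeks, and the 25-week βEedKO libraries pooled more animals. The labels do not state whether WT and HET animals carried the Cre transgene.

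LIM homeobox genes encode transcription factors with a pair of zinc-binding LIM domains and a DNA-binding homeodomain. The LIM domains bind the cofactor Ldb1, which joins these factors into larger complexes. They are best known as regulators of development, in which combinations of them set the identity of neurons, and several also shape the pituitary, gonad, kidney and limb. In the adult islet the best-known relative is Isl1, which islet endocrine cells need. PRC2 methylates histone H3 at lysine 27 (H3K27me3) and keeps many developmental regulators silent. At bivalent promoters this mark lies beside H3K4me3, a mark of promoters in use.

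Most of the family lay in bivalent chromatin in healthy islets. The deposited segmentation gives each 200 bp bin of the autosomes 1 of 24 chromatin states, lettered A to X, from histone marks, polymerase and DNA methylation of healthy islets. State A marks active promoters, L a bivalent state high in H3K4me3, and M a bivalent state high in H3K27me3. At the annotated 5′ end, 5 genes were in state M (Lhx4, Lhx5, Lhx8, Lhx9 and Lmx1a) and 3 were in state L (Lhx2, Lhx6 and Lmx1b), so 8 of 10 carried L or M. Of 28877 genes with a state at the 5′ end, 10.5% had L and 5.62% had M. Lhx1 began in the active promoter state B, in a bin that was surrounded by state L. Lhx3 began in state H, an active state of transcribed regions, at the edge of its neighbour Qsox2, while 89.0% of the Lhx3 gene body was in state M.

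The bivalent domains were broad. States L and M together covered 100% of the 10 kb around the start of Lhx5, Lhx6 and Lhx8, 98% at Lhx2, 82.4% at Lmx1a and 71.3% at Lhx1. The share was 68.2% at Lhx9, 57.2% at Lhx4, 41.1% at Lhx3 and 38% at Lmx1b. State M covers 1.23% of the segmented genome, and it covered 84.5% of the Lhx2 gene, 87.2% of Lhx5, 89.7% of Lhx9 and 63.1% of Lhx6. The Lmx1b gene differed from the others in that state X, a quiescent state, took 28.4% of its length and state I, a state of transcribed regions, took 26.7%.

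**Figure D1:**
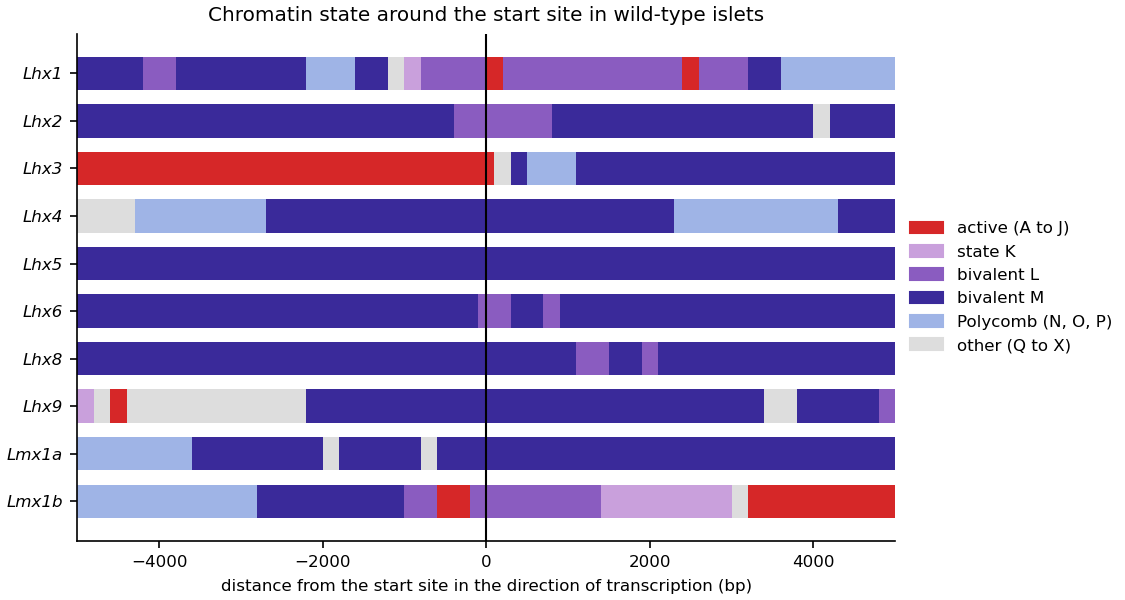
Chromatin state in healthy islets within 5000 bp of the annotated start of each LIM homeobox gene. The x axis is the distance from the start in bp along the direction of transcription, each row is a gene, and colour gives the state. Blue and purple bivalent states fill the rows of Lhx2, Lhx5, Lhx6 and Lhx8, whereas Lhx1, Lhx3 and Lmx1b hold active segments near the start.

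The promoters of the family ranged from very rich to poor in CpG. The 250 bases upstream of 6 RefSeq starts (GRCm38.p6) are printed to show that range, with each CG in capitals: Lhx2, Lhx6, Lhx8 and Lmx1a, which were called higher in βEedKO islets at 25 weeks, and Lhx1 and Lmx1b, which WT islets already express. The windows lie at chr2:38339031-38339280 (plus strand) for Lhx2, chr2:36105409-36105658 (minus) for Lhx6, chr3:154330561-154330810 (minus) for Lhx8, chr1:167689308-167689557 (plus) for Lmx1a, chr11:84525535-84525784 (minus) for Lhx1 and chr2:33641099-33641348 (minus) for Lmx1b. Each is written 5′ to 3′ on the strand of its gene.
Lhx2: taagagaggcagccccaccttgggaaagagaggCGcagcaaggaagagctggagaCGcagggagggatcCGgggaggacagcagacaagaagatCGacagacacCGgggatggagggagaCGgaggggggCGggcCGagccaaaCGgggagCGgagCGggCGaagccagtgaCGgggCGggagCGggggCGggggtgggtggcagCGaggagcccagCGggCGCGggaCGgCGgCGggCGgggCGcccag
Lhx6: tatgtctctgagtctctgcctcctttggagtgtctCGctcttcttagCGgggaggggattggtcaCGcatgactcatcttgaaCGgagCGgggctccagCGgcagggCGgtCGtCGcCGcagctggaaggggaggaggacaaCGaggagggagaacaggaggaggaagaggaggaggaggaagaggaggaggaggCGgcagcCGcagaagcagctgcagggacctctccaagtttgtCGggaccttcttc
Lhx8: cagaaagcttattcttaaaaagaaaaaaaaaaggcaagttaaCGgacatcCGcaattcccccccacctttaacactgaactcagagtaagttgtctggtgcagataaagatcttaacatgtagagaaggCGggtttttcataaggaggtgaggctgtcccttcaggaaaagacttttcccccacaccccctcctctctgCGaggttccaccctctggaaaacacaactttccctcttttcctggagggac
Lmx1a: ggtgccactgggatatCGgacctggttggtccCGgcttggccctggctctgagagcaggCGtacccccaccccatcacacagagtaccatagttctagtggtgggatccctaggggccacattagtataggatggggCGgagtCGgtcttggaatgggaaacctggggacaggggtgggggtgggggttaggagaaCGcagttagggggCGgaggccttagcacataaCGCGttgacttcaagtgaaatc
Lhx1: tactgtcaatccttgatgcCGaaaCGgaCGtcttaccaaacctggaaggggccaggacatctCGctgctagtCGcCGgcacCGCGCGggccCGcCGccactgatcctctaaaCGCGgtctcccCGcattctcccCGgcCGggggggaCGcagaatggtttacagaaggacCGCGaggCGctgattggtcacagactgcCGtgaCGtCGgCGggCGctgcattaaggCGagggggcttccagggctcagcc
Lmx1b: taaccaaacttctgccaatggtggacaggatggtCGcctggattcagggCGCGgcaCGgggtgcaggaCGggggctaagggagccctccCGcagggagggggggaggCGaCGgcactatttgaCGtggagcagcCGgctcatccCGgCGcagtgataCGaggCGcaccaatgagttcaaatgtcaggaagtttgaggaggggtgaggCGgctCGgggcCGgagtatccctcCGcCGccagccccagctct

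RefSeq promoters were matched for 9 of the 10 genes, 13 windows in all, and Lhx5 was not among them. CpG counts ran from 4 in the windows of Lhx8 and Lhx9 to 26 in that of Lhx1, with 25 at the first Lhx2 start and 19 at Lmx1b. All 32851 promoters in the table had a median of 6 CpG in 250 bases (quartiles 2 and 16). Rich and poor windows occurred among genes called higher: Lhx2 had more CpG than 89.3% of promoters and Lhx8 more than 37.8%. The letters TAATTA, a core that many homeodomain proteins bind and that reads the same on both strands, were in none of the 13 windows and in 4.84% of all promoters. The RefSeq starts of Lhx4 and Lhx9 lie 9657 and 6133 bp from the 5′ ends used for the states above, in states L and M. The RefSeq start of Lmx1b lies 587 bp upstream of that 5′ end, in the active state B, and most of its window lies beyond, in state L.

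Some facts of the libraries bear on the results of single genes. Total counts ran from 4645393 (WT replicate 2 at 25 weeks) to 22925359. Eed itself had 13.4 to 14.9 CPM (reads scaled to library size) in βEedKO against 23.8 to 33.1 in WT at 8 weeks, and 14.2 to 15.6 against 19.2 to 28.3 at 25 weeks. The groups did not overlap, but neither difference passed edgeR's test (adjusted p = 0.0881 and 0.142). Summed CPM of 6 interferon-induced genes was 2120 to 3510 in WT replicates 3 and 4 and βEedKO replicates 4 and 5 at 8 weeks, and 27.9 to 96.9 in the other 12 libraries. Marker RNA of islet cell types differed at 25 weeks, with 6 β cell markers summing to 13800 and 17100 CPM in βEedKO against 122000 to 218000 in WT, and 6 acinar markers to 295000 CPM in βEedKO replicate 2 against 9550 in replicate 3. In bulk RNA, fewer cells of a type and less RNA per cell cannot be told apart.

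At 25 weeks 6 of the 10 genes were called higher in βEedKO than in WT islets and none was called lower (edgeR quasi-likelihood test, Benjamini-Hochberg adjusted p under 0.05). Of all 18685 genes tested, 4.58% were called higher and 2.02% lower, 6.6% in all. The 6 were Lhx2, Lhx5, Lhx6, Lhx8, Lhx9 and Lmx1a. The median log2 fold change was 7.01 over the 10 genes, 5.21 with the 5 genes at 0 reads in WT set to their lower bounds, and 0.03 over all genes. With library size alone as scaling the same 6 were called, while over all genes 803 were higher and 79 lower, against 856 and 378 here, and their median moved to 0.26. In 8 of the 10 genes WT libraries alone fail the filter on low counts, and of the 3131 tested genes of that kind 11.3% were called higher. A fold change fitted against a group with 0 reads depends on the fitting prior, so those genes are given as lower bounds, computed against 3 reads over the WT group.

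Lhx2 and Lhx9 are close relatives, Lhx2 needed for forebrain, eye and hair follicle, and Lhx9 for the gonad. Lhx2 (ENSMUSG00000000247.11, chr2:38339281-38369733) had 131 and 451 reads in the 25-week βEedKO libraries, or 9.96 and 18.2 CPM, and 0 reads in each of the 3 WT libraries. Both βEedKO libraries were far above every WT library, at least 158-fold higher as a group (edgeR adjusted p = 0.00345). Lhx9 (ENSMUSG00000019230.14, chr1:138825186-138848577) had 71 and 94 reads in βEedKO (5.40 and 3.79 CPM) and 0, 1 and 0 in WT. WT held 1 read in all, which gave a ratio of 134.1 (counting interval 23.7 to 5330), and edgeR called the gene higher (log2 fold change 6.81, SE 1.09, adjusted p = 0.00492). With replicate numbers as a block the adjusted p of Lhx9 was 0.0639, and that of Lhx2 stayed under 0.05 in all 19 alternatives, with 0.0264 the highest.

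Lhx1 and Lhx5 are both needed in the developing brain, Lhx1 also in kidney and head formation, and Lhx5 alone of the pair was called. Lhx5 (ENSMUSG00000029595.9, chr5:120431699-120441223) had 109 and 261 reads in βEedKO at 25 weeks (8.29 and 10.5 CPM) and 0 in each WT library. The groups were fully apart, at least 100-fold (edgeR adjusted p = 0.00491), and the call held in all 19 alternatives. Lhx1 (ENSMUSG00000018698.15, chr11:84518284-84525535) had 117 and 258 reads in βEedKO (8.90 and 10.4 CPM) and 31, 273 and 245 in WT (6.75, 20.5 and 18.9 CPM). Both βEedKO values lay inside the WT range, and the log2 fold change was -0.74 (SE 0.55, edgeR adjusted p = 0.511). Per kilobase of exon, Lhx5 then stood at 3.08 to 3.92 RPKM (CPM per kb) in the 25-week βEedKO libraries and Lhx1 at 2.18 to 2.56. In both libraries Lhx5, with 0 reads in WT, had the higher RPKM of the pair.

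Lhx6 and Lhx8 are partners in the ventral forebrain, where Lhx6 directs cortical interneurons and Lhx8 cholinergic neurons. Lhx6 (ENSMUSG00000026890.19, chr2:36081953-36105408) had 137 and 150 reads in 25-week βEedKO islets (10.4 and 6.05 CPM) and 1, 10 and 2 in WT (0.218, 0.752 and 0.155 CPM). Every βEedKO library exceeded every WT library, with a log2 fold change of 4.29 (SE 0.70, edgeR adjusted p = 0.00545), and the call held in all 19 alternatives. Lhx8 (ENSMUSG00000096225.7, chr3:154306294-154330659) had 63 and 118 reads in βEedKO (4.79 and 4.76 CPM) and 0 in WT, at least 49-fold higher. Its call was weaker (edgeR adjusted p = 0.0300): it was 0.0703 with the replicate block, 0.310 with DESeq2, 0.0691 with HET libraries in the fit, and 0.0858 to 0.134 without WT replicate 3 or 4 or either βEedKO replicate of that age.

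Lmx1a and Lmx1b are close relatives too, both needed for midbrain dopamine neurons, Lmx1b also for serotonin neurons, dorsal limb and kidney podocytes. Lmx1a (ENSMUSG00000026686.14, chr1:167689237-167848741) had 71 and 109 reads in βEedKO at 25 weeks (5.40 and 4.40 CPM) and 0 in each WT library. This gene was at least 48.7-fold higher (edgeR adjusted p = 0.0157), 0.0889 with the replicate block, and 0.0587 to 0.0765 without WT replicate 3 or 4 or either βEedKO replicate. Lmx1b (ENSMUSG00000038765.13, chr2:33560965-33640511) had 92 and 320 reads in βEedKO (7.0 and 12.9 CPM) and 56, 222 and 181 in WT (12.2, 16.7 and 14.0 CPM). The groups overlapped, and the log2 fold change of -0.58 (SE 0.59) did not pass (edgeR adjusted p = 0.654).

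Lhx3 and Lhx4 act in the pituitary and in motor neurons, and neither was called at 25 weeks. Lhx3 (ENSMUSG00000026934.15, chr2:26200212-26208289) had 15 and 74 reads in βEedKO (1.14 and 2.99 CPM) and 0, 0 and 2 in WT. Both βEedKO libraries were above WT, 36.15-fold by read ratio (counting interval 9.72 to 303), yet the libraries of a group varied widely (log2 fold change 4.82, SE 1.65, edgeR adjusted p = 0.123). The adjusted p was 0.0324 with DESeq2, 0.0280 with WT and HET pooled as control and 0.0272 without βEedKO replicate 1 of 8 weeks. Lhx4 (ENSMUSG00000026468.14, chr1:155698031-155751684) had 22 and 18 reads in βEedKO (1.67 and 0.726 CPM), and 0 in all 14 other libraries. The bound was at least 10.8-fold (edgeR adjusted p = 0.106, and 0.0357 with WT and HET pooled).

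**Figure D2:**
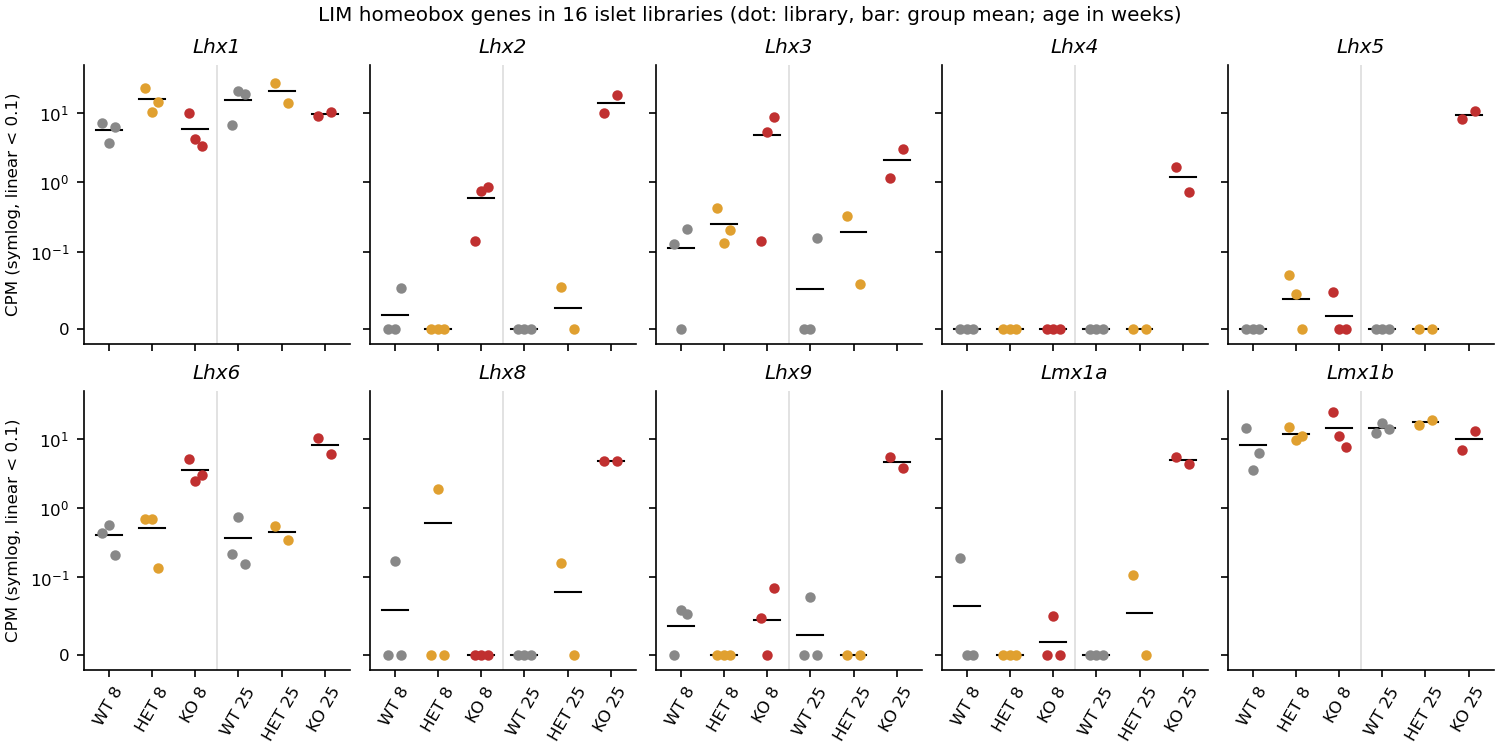
Level of each LIM homeobox gene in CPM (y axis, logarithmic above 0.1 and linear below) in the 16 libraries by genotype and age in weeks (x axis). Dots are libraries and bars are group means. In 8 panels both 25-week βEedKO (KO) dots lie above all 25-week WT dots, and in the panels of Lhx1 and Lmx1b they do not.

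In 8 of the 10 genes both βEedKO libraries of 25 weeks exceeded all 3 WT libraries of that age, which held for 24.7% of all genes tested and 45.8% of those that fail the filter on WT. The state at the start went with the calls as follows. Among the genes with state M, 4 of 5 were called higher, against 27.1% of 902 tested genes with that state. In state L 2 of 3 were called, against 13.9% of 2512. Lhx1 in state B and Lhx3 in state H were not called. Other transcripts of these genes start in states L and M for Lhx1 and in state M for Lhx3. Genes with the active state A were called higher in 0.429% of 6533 cases, and genes with N, a Polycomb state without H3K4me3, in 6.94% of 576. At 8 weeks the shares were 2.55% for M, 1.83% for L, 0.174% for N and 0.0153% for A, and none of the 10 genes was called.

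**Figure D3:**
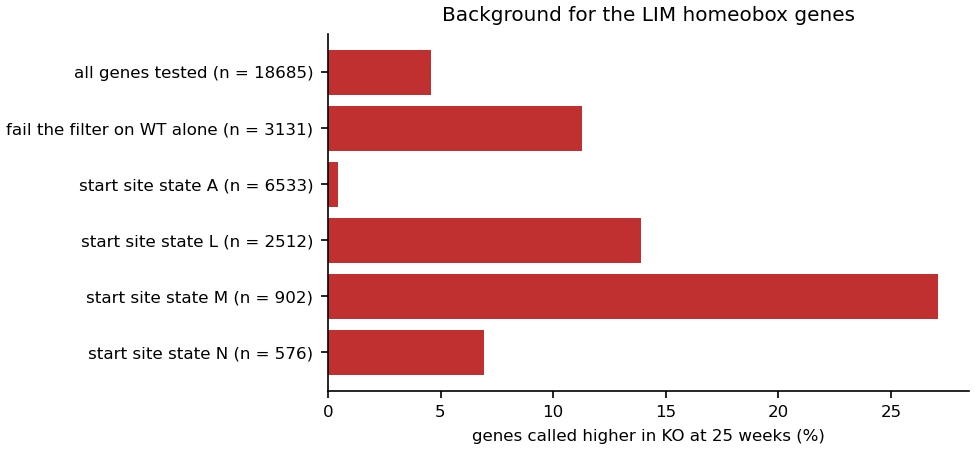
Share of tested genes called higher in βEedKO islets at 25 weeks (x axis, percent), for all genes, for genes under the filter in WT and by chromatin state at the start site (y axis, with the number tested). The share is 27.1% for state M, 13.9% for state L and 0.429% for state A.

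At 8 weeks of age 3 genes stood out and none was called. With edgeR 0 of the 10 passed, against 0.428% of all genes called higher and 0.00535% lower, and 3 had an unadjusted p under 0.05 (Lhx2, Lhx3 and Lhx6), as did 1470 of 18685 genes. DESeq2 called those 3, and over all genes 358 higher and 35 lower. Lhx6 had 107, 50 and 35 reads in βEedKO (5.07, 2.51 and 3.03 CPM) and 7, 10 and 4 in WT (0.444, 0.581 and 0.212 CPM). All βEedKO libraries were above all WT libraries, with a log2 fold change of 3.08 (SE 0.63, edgeR adjusted p = 0.0819), 0.0354 with no filter on low counts and 0.00430 with WT and HET pooled. Lhx2 had 3, 15 and 10 reads in βEedKO and 0, 0 and 1 in WT. The groups did not overlap, the ratio was 27.61 (counting interval 4.57 to 1130) and the edgeR adjusted p was 0.191. Among all genes, 6.54% had every βEedKO library above every WT library at 8 weeks, and 12.6% of those under the filter in WT did so.

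Lhx3 was split within the 8-week βEedKO group. It had 3 reads in replicate 1 (0.142 CPM) and 107 and 102 in replicates 4 and 5 (5.36 and 8.82 CPM), against 2, 0 and 4 in WT. Replicate 1 lay inside the WT range, and the other βEedKO libraries were far above it (log2 fold change 5.30, SE 1.41, edgeR adjusted p = 0.217). Without replicate 1 the edgeR adjusted p was 0.0326. With WT replicate 1 of 8 weeks left out as well, Lhx3 was not called at this age. Replicates 4 and 5 are the interferon-high βEedKO libraries. The interferon-high WT libraries had 0 and 4 Lhx3 reads. Immune markers (4 genes) summed to 56.1 and 121 CPM in βEedKO replicates 4 and 5 and to 22.9 to 31.8 in the other 4 WT and βEedKO libraries of that age. The part of these in the Lhx3 level was not tested.

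Lhx4, Lhx5, Lhx8, Lhx9 and Lmx1a were at or near 0 in all 8-week WT and βEedKO libraries. They had 0, 1, 0, 2 and 1 reads over the 3 βEedKO libraries and 0, 0, 3, 2 and 3 over the WT libraries. A count of 0 still allows 3 reads over a group, or 0.057 CPM in βEedKO and 0.0578 CPM in WT, counting error only. Lhx1 had 10.0, 4.21 and 3.29 CPM in βEedKO and 7.23, 3.66 and 6.25 in WT, which overlapped (log2 fold change 0.03, SE 0.49, edgeR adjusted p = 0.998). Lmx1b had 24.6, 10.9 and 7.61 CPM in βEedKO and 14.3, 3.60 and 6.19 in WT, overlapping as well (log2 fold change 0.85, SE 0.52, edgeR adjusted p = 0.782).

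**Figure D4:**
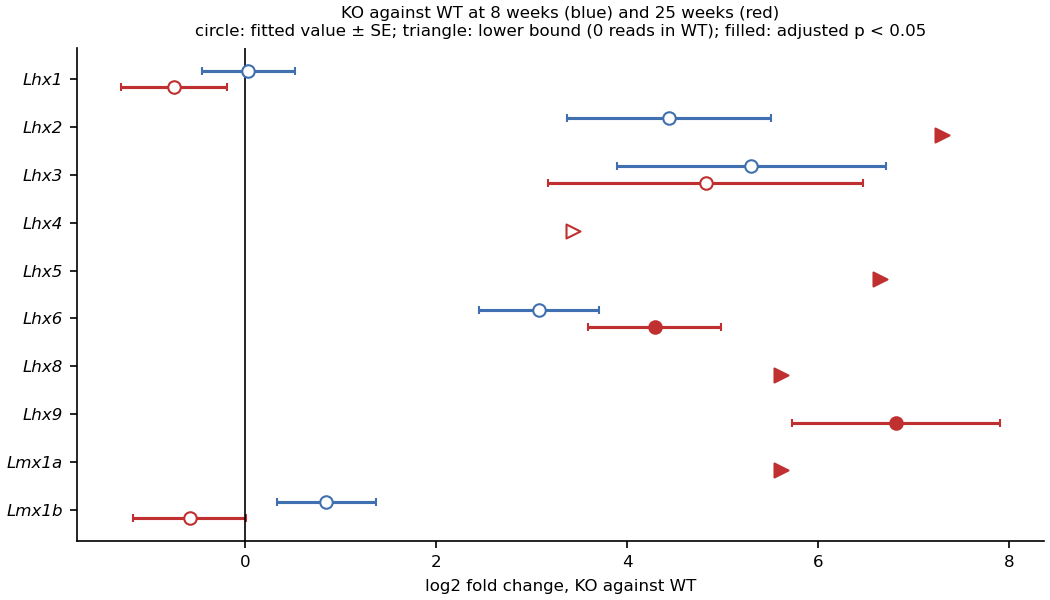
Log2 fold change of βEedKO (KO) against WT (x axis) for each LIM homeobox gene (y axis) at 8 weeks in blue and 25 weeks in red. Circles are edgeR values with SE, triangles are lower bounds where WT had 0 reads, and filled symbols passed the test. Lhx2, Lhx5, Lhx6, Lhx8, Lhx9 and Lmx1a are filled at 25 weeks, and no symbol is filled at 8 weeks.

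Within βEedKO islets 4 genes were called higher at 25 than at 8 weeks and 0 lower, against 1.02% and 0.487% of all genes (1.5% in all). All 4 failed the filter on low counts when the 25-week βEedKO libraries were left out, so they were tested only through libraries in which they are high. The share called among all genes of that kind was not computed, and the count is a description only. Lhx5 went from 1, 0 and 0 reads to 109 and 261 (ratio 513, counting interval 91.5 to 20300, edgeR adjusted p = 0.0148). Lhx9 went from 1, 0 and 1 reads to 71 and 94 (log2 fold change 6.56, SE 1.00, edgeR adjusted p = 0.0128). Lmx1a went from 0, 1 and 0 reads to 71 and 109 (ratio 249.6, counting interval 44.2 to 9910, edgeR adjusted p = 0.0373). Lhx2, already above 0 at 8 weeks, rose by a log2 fold change of 4.54 (SE 0.82, edgeR adjusted p = 0.0381). In each of these genes, named here because they were called, all βEedKO libraries of 25 weeks exceeded all of 8 weeks. The share of all genes that did so was not computed. Replicates 4 and 5 of 8 weeks are the interferon-high βEedKO libraries (3020 and 3510 CPM), and both of 25 weeks were low (57.5 and 96.9). Age within βEedKO is therefore partly confounded with that split, as it is within WT.

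Lhx8 and Lhx4 went from 0 reads at 8 weeks to at least 83.7-fold and 18.5-fold higher, with edgeR adjusted p = 0.0525 and 0.156. Lhx6 had 2.51 to 5.07 CPM at 8 weeks and 6.05 and 10.4 at 25 (log2 fold change 1.17, SE 0.61, edgeR adjusted p = 0.420). Lhx3 showed 0.142 to 8.82 CPM at 8 weeks and 1.14 and 2.99 at 25, so its ages overlapped (log2 fold change -1.26, SE 1.28, edgeR adjusted p = 0.687). These calls leaned on single libraries: the count fell to 0 without βEedKO replicate 4 of 8 weeks or without either βEedKO replicate of 25 weeks, and to 1 (Lhx9) without replicate 5 of 8 weeks.

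The difference between the βEedKO effects at 25 and 8 weeks was tested as an interaction. None of the 10 genes passed with edgeR, against 0.091% of all genes higher and 0.107% lower (0.198% in all), and 4 had an unadjusted p under 0.05, as did 1450 of 18685 genes. DESeq2 called Lhx5 and Lmx1a, and over all genes 166 higher and 174 lower. By the edgeR test, then, a call at 25 weeks and none at 8 weeks does not show that the effects differed for any of the 10.

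In WT islets age moved none of the 10 genes past the threshold, and 0% of all genes were called (edgeR; 1 of the 10, Lhx1, had an unadjusted p under 0.05, as did 1898 of 18685 genes; DESeq2 called 0 of the 10). Lhx1 had 3.66 to 7.23 CPM at 8 weeks and 6.75, 20.5 and 18.9 at 25, with a log2 fold change of 1.45 (SE 0.50, edgeR adjusted p = 0.489). No difference between HET and WT was called in the 10 genes by edgeR or DESeq2, with 0% of all genes called by edgeR at either age. DESeq2 called 120 genes higher and 287 lower at 8 weeks and 2 and 1 at 25 weeks, and edgeR without WT replicate 1 of 8 weeks called 85 and 516 at 8 weeks. The HET libraries of 8 weeks were all interferon-low (27.9 to 38.2 CPM), and WT replicates 3 and 4 were high (2120 and 2210). Genotype and that split are thus partly confounded at 8 weeks, and without WT replicate 1 they cannot be told apart. At 8 weeks 1 of the 10 had an unadjusted p under 0.05, as did 2743 of 18828 genes, and at 25 weeks 0 had, against 210 genes. That gene was Lhx1, with 22.7, 10.4 and 14.4 CPM in HET against 7.23, 3.66 and 6.25 in WT at 8 weeks. All HET libraries were above all WT libraries (log2 fold change 1.47, SE 0.50, edgeR adjusted p = 0.261).

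Levels between genes can be compared per kilobase of exon. In 25-week WT islets Lhx1 (mean 3.78 RPKM, range 1.66 to 5.04) and Lmx1b (2.93, range 2.5 to 3.42) led the family and overlapped each other. The next gene, Lhx6, stood at 0.078 RPKM, below both in every library, and Lhx3 at 0.0169. In 25-week βEedKO islets 7 genes had means over 1 RPKM, in the order Lhx5 (3.50), Lhx2 (3.20), Lhx1 (2.37), Lmx1b (2.04), Lhx8 (1.89), Lhx6 (1.71) and Lmx1a (1.44). Among these 7, each overlapped the next in the order. Lhx3 (0.677) lay below Lmx1a without overlap and overlapped Lhx9 (0.484), and Lhx4 was last at 0.209, below Lhx9 in both libraries. The number of the 10 genes with at least 1 read was 10 in both 25-week βEedKO libraries, and 3, 4 and 4 in the WT libraries of that age. It was 7 and 4 in HET at 25 weeks. At 8 weeks it was 7, 6 and 6 in βEedKO and 5, 5 and 6 in WT. Such a number depends on depth, and the same share over all genes was not computed. At 25 weeks the summed CPM of the family was 63.0 and 74.7 in βEedKO against 19.2, 38.0 and 33.2 in WT.

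Some levels could include reads of a gene next to the member, since the library kit does not mark strand. Gm27199, an antisense gene that shares 69 exonic bases with Lhx5, had 16 and 14 reads in 25-week βEedKO islets and 0 in all other libraries. These were few beside the 109 and 261 reads of Lhx5. Gm27196, which shares 188 exonic bases with Lhx3 on the other strand, had 0 to 3 reads in every library. C130021I20Rik starts on the other strand inside the printed Lmx1b promoter window and does not overlap the annotated Lmx1b gene. It had 11.3 and 16.7 CPM in 25-week βEedKO islets against 5.23 to 12.5 in WT (log2 fold change 0.60, edgeR adjusted p = 0.597). Qsox2, which lies directly upstream of Lhx3 on the same strand, was not called either (log2 fold change -0.33, edgeR adjusted p = 0.466).

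Markers of other islet-resident cells give the setting of these levels. At 25 weeks 4 glial markers summed to 21.7 and 53.1 CPM in βEedKO and 17 to 67.1 in WT, and 4 neuronal markers to 36.6 and 37.3 against 44.1 to 58.4, so neither list was above WT. Gfap was at 0 in WT replicate 3. Mesenchymal markers (4 genes) stood at 120 and 122 CPM in βEedKO against 43.1 to 60.6, immune markers (4) at 66.4 and 105 against 30.8 to 37.5, and duct markers (4) at 541 and 629 against 256 to 307. Endothelial markers (4) overlapped, with 257 and 329 CPM against 247 to 287. Markers of other endocrine cells (6) summed to 15900 and 17400 CPM against 10400 to 12600. The part of glial, neuronal, mesenchymal, immune, duct, endothelial, acinar and other endocrine cells in the family's levels was not tested.

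Other LIM genes gave 1 call, to a lower level. The list held Isl1 and Isl2, which are LIM homeodomain factors too, the LIM-only genes Lmo1 to Lmo4, whose proteins compete for Ldb1, and the cofactors Ldb1, Ldb2, Ssbp2, Ssbp3, Ssbp4 and Rlim. Of these 12, all were tested at 25 weeks, 0 were called higher and 1 lower, against 4.58% and 2.02% of all genes. The median log2 fold change was 0.21. The count called higher was 2 with DESeq2 (Ldb2 and Lmo4), 2 with HET libraries in the fit (Isl2 and Ldb2), 3 with WT and HET pooled (Isl2, Lmo4 and Ldb2), 2 without βEedKO replicate 4 of 8 weeks (Isl2 and Ldb2), 3 without both replicates numbered 1 (Isl2, Lmo2 and Ldb2), 1 with no filter (Isl2) and 1 without βEedKO replicate 1 of 8 weeks (Ldb2). Calls higher over all genes moved too, from 856 to 1336 with DESeq2, 1112 with HET libraries in the fit and 1828 with WT and HET pooled. They were 695 without βEedKO replicate 4, 1073 without βEedKO replicate 1 and 1614 without both replicates numbered 1, all of 8 weeks, and 1067 with no filter. At 8 weeks 0 of 12 were called in either direction, against 0.434% of all genes.

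Isl1, the islet factor, was the gene called lower. Its CPM was 48.4 and 54.0 in 25-week βEedKO islets and 177, 140 and 127 in WT. Both βEedKO libraries were below all WT libraries (log2 fold change -1.58, SE 0.40, edgeR adjusted p = 0.0423), while 5 of the 6 β cell markers were called lower too. Their part in the Isl1 level was not tested. With library size alone its adjusted p was 0.181. It was 0.228 and 0.198 leaving out βEedKO replicate 2 or 3 of 25 weeks, and over 0.05 without any 1 of the WT replicates of that age (0.0820 to 0.111), WT replicate 3 or 4 of 8 weeks or βEedKO replicate 5 of 8 weeks (0.0545 to 0.0582). At 8 weeks Isl1 had 60.1 to 142 CPM in βEedKO and 70.2 to 137 in WT.

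Isl2, a motor neuron factor with state M at its start, had 22 and 40 reads in 25-week βEedKO islets and 0 in WT (edgeR adjusted p = 0.0752). At 8 weeks it had 8, 0 and 2 reads in βEedKO and 0 in WT. Ldb1, the main cofactor, had 111 and 84.0 CPM in βEedKO against 109 to 143 in WT at 25 weeks (log2 fold change -0.46, SE 0.41, edgeR adjusted p = 0.603). Its relative Ldb2, in state L, had 12.4 and 8.03 CPM against 2.40 to 2.83, without overlap (log2 fold change 1.88, SE 0.51, edgeR adjusted p = 0.0562). Lmo4 had 19.9 and 16.2 CPM against 3.91 to 9.37, also without overlap (log2 fold change 1.24, SE 0.41, edgeR adjusted p = 0.106). Lmo1 set the interferon-high libraries apart, with 23.0 to 35.1 CPM in those 4 and 1.58 to 8.44 in all others.

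**Figure D5:**
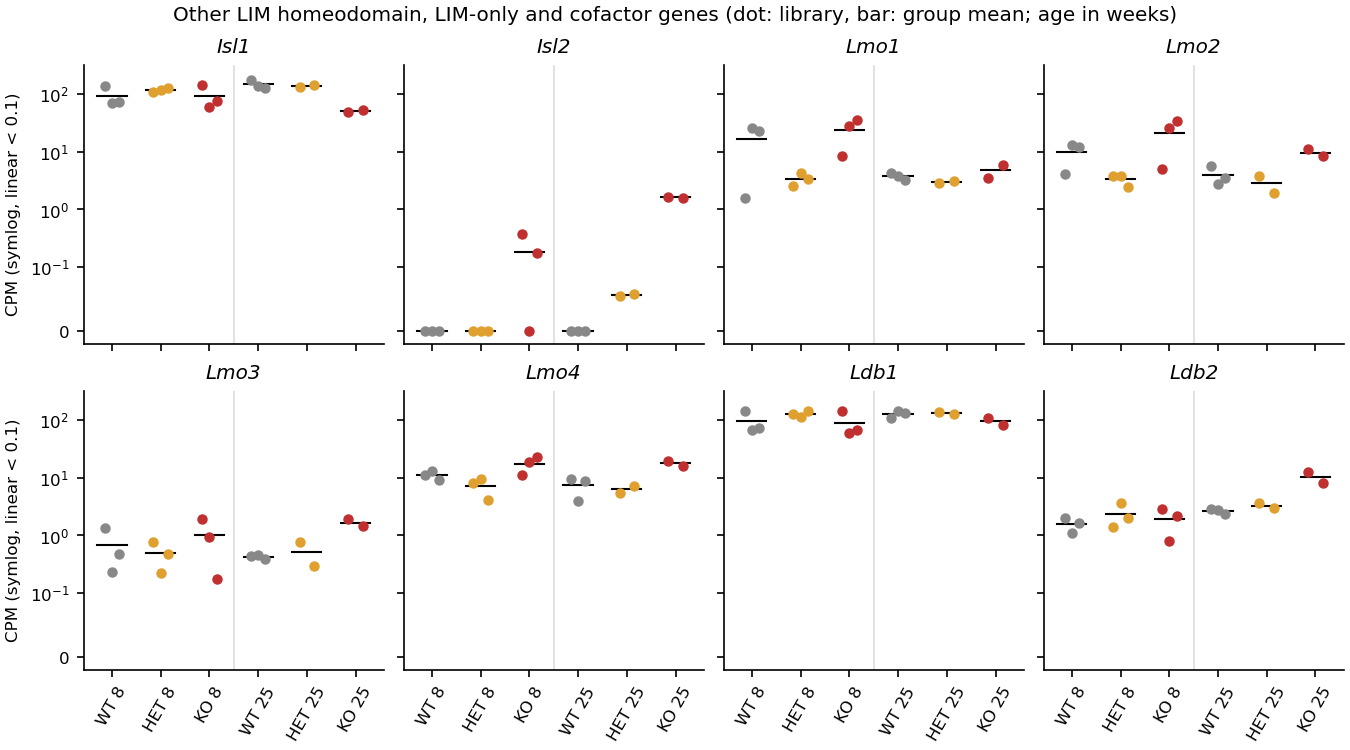
Level of other LIM homeodomain, LIM-only and cofactor genes in CPM (y axis, logarithmic above 0.1 and linear below) by genotype and age in weeks (x axis). Dots are libraries and bars are group means. Isl1 is lower in 25-week βEedKO (KO) islets, at 48.4 and 54.0 CPM, and Isl2 is above 0 in them with 1.67 and 1.61 CPM.

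Genes that act with these factors, and products of the cells they specify, were listed as well. Of 39 such genes 25 were tested. At 25 weeks 10 were called higher and 3 lower, against 4.58% and 2.02% of all genes, and the median log2 fold change was 1.09 against 0.03. Of those called higher, Pax2, Six3, En1 and Slc6a3 had 0 reads in 25-week WT, and Emx2 and Nkx2-1 had 1. Among tested genes that fail the filter on WT alone, 11.3% were called higher at 25 weeks and 1.02% at 8 weeks. Listed genes low in every group were not tested, so the share called leans on the filter. At 8 weeks 3 were called higher (Six3, Msx1 and Gad2), against 0.428% of all genes, none of which passed with the replicate block (edgeR adjusted p of 0.187 to 0.379). Of 22 factors listed and 13 tested, 8 were called higher at 25 weeks, among them Pax2, Six3, Emx2, Nkx2-1, En1, Msx1 and Fev. With the block 8 of the 10 passed, and Emx2 and Slc6a3 did not (edgeR adjusted p = 0.0612 and 0.137). Without βEedKO replicate 2 or 3 of 25 weeks the count called higher was 6, and without WT replicate 3 or 4 of that age it was 7. The count of 3 at 8 weeks ran from 0 to 3 without 1 library, and was 0 without WT replicate 3 or 4 or βEedKO replicate 4 or 5 of 8 weeks, or either βEedKO replicate of 25 weeks, and 1 without WT replicate 1 of 8 weeks or WT replicate 2 of 25 weeks.

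Several of these work beside a named LIM factor in the embryo. Nkx2-1, which acts upstream of Lhx6 in the ventral forebrain, had 13.7 and 17 CPM in 25-week βEedKO islets and 1 read in all of WT (edgeR adjusted p = 0.00368). Six3, an eye and forebrain factor as Lhx2 is, had 35.4 and 30.3 CPM against 0 reads in WT, and 22, 14 and 8 reads in βEedKO at 8 weeks. En1 and Msx1, which share the midbrain with Lmx1a, had 9.12 and 9.88 CPM, and 11.7 and 22.1 CPM, in βEedKO at 25 weeks. WT of 25 weeks had 0 reads of En1 and 0.526 to 1.24 CPM of Msx1. Mnx1, a motor neuron factor that β cells also use, was called lower (4.33 and 6.53 against 15.2 to 18.0 CPM, edgeR adjusted p = 0.0139).

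Products of the neurons that the family specifies moved in both directions. Gad2, an enzyme that makes GABA, had 13.3 and 18.6 CPM in 25-week βEedKO islets against 0.0773 to 0.226 in WT (log2 fold change 6.48, SE 1.01, edgeR adjusted p = 0.00451). At 8 weeks Gad2 was uneven between the same libraries as Lhx3, with 0.711 CPM in βEedKO replicate 1 and 9.32 and 7.26 in replicates 4 and 5. WT had 5 Gad2 reads in all at that age, and Gad2, unlike Lhx3, was called higher. Gad1, the other GABA enzyme and in WT the far more counted of the pair, fell by 3.40 on the log2 scale. Th, the first enzyme of dopamine synthesis, fell by 2.17 (SE 0.37, edgeR adjusted p = 0.00723), and Slc6a3, the dopamine transporter, went from 0 reads to 22 and 42. Among 3 cholinergic genes (Chat, Slc18a3 and Slc5a7) 0 were called. Of 6 pituitary hormone genes 1 passed the filter, Tshb, which was not called (log2 fold change -0.51, edgeR adjusted p = 0.796). Prl and Fshb had 0 reads in all 16 libraries.

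The genes whose levels were most like the mean of the family over the 16 libraries were Pou3f3, Pitx1 and Foxd1. They are transcription factor genes as well, and their Pearson correlations with the family mean on the log2(CPM + 0.5) scale were all 0.984. The measure is set largely by the 2 βEedKO libraries of 25 weeks, in which Pou3f3 had 12.5 and 14.2 CPM, Pitx1 21.2 and 31.0, and Foxd1 6.31 and 9.24. Over the other 14 libraries the correlations were 0.755, 0.745 and 0.755.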

How the data were processed

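RNA from whole islets was sequenced on an Illumina instrument after TruSeq RNA v2 preparation, which does not mark strand. Per the study's methods and the labels, the authors mapped reads with TopHat2 2.0.13 to GRCm38 and counted them per gene with featureCounts (Subread 1.5.0-p1) on Gencode gene models. The strand setting is not given in the sources used here. The deposited table holds raw read counts, which were used unchanged. The authors' deposited segmentation (EpicSeg, replicates averaged) holds a state letter per segment.

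Gene symbols and starts came from GENCODE M21 on GRCm38, a later release than the authors used. Genes were filtered with edgeR's filterByExpr by group, scaled by TMM and tested with edgeR 4.0.16 (quasi-likelihood) in R 4.3.3. The 4 WT and βEedKO groups (11 libraries) were fitted together for the βEedKO and age contrasts, and all 6 groups for HET. CPM values use the scaling of all 16 libraries, and RPKM is CPM per kb of GENCODE exon. The SE of a log2 fold change was taken as its size over the root of F. Tests were two-sided, and p-values were adjusted over all genes tested. All 10 genes passed the filter in both fits, and 2 of them (Lhx1 and Lmx1b) pass on WT libraries alone. Bounds use 3 reads over a group, and ratios have exact binomial 95% intervals, which cover counting error only. Pipelines were tested on simulated data.

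P-values measure the spread between these libraries, for which the labels do not name the animals. No 2 libraries of a group agreed within sampling noise (chi-square per degree of freedom 31.03 or more). Replicate numbers shared by WT and βEedKO were used as a block. Between such libraries, deviations from group means correlated at 0.457 and 0.163 at 8 weeks (replicates 1 and 4). At 25 weeks the values were 0.176 and 0.255 (replicates 2 and 3). Libraries with different numbers were not compared, so these values cannot show that the numbers pair libraries. Both replicates 1 of 8 weeks were also the interferon-low library of their group. Deviations in a group of 2 are exact opposites, so the 25-week values are not independent. A library without a partner of its number adds no genotype comparison within a block. Calls with the block therefore rest on fewer libraries. Values with the block are given where they change a call.

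Alternatives were library size alone, DESeq2's size factors and test (DESeq2 1.42.0), no filter on low counts, the replicate block, another set of libraries, WT and HET pooled as control, and leaving out each library. One more, leaving out both replicates numbered 1 at 8 weeks, was added after seeing the data, as were the interferon genes and neighbouring genes. The named genes were all 10 members, all genes of the lists above and the 3 genes most alike. The members and lists were chosen with earlier results of these data known. A deposited list of cell barcodes was not used, and a few of the listed genes are not reported here.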

Additional observations from a re-analysis of the deposited data

Results flagged for a closer look

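Gad1 was the only gene of the family, the other LIM genes, the partners and the products whose βEedKO effect differed between ages in a test of the difference itself (edgeR interaction, adjusted p = 0.00967). Gad1 had 90.1, 90.8 and 77.6 CPM in βEedKO against 154, 118 and 142 in WT at 8 weeks, and 14.9 and 23.5 against 166, 219 and 200 at 25 weeks. The log2 fold change was -0.68 (SE 0.21) at 8 weeks and -3.40 (SE 0.28) at 25 weeks, a difference of -2.72 (SE 0.33). Summed CPM of the 6 β cell markers was 130000 to 213000 in βEedKO at 8 weeks and 13800 and 17100 at 25 weeks. Their part in the Gad1 level was not tested.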

How the results depend on the processing

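At 25 weeks the count of LIM homeobox genes called was 6 in the analysis reported and 3 with the replicate block (Lhx2, Lhx5 and Lhx6), and 4 to 7 without 1 library. At 8 weeks it was 0, with 3 by DESeq2, 1 with no filter on low counts, 3 with WT and HET pooled, and 0 to 1 without 1 library. The interaction gave 0, with 2 by DESeq2, 1 with WT and HET pooled (Lhx5), and 0 to 0 without 1 library. Within βEedKO the age count of 4 ran from 0 to 5 without 1 library. The counts for age in WT and for HET against WT, all 0, and the 8 genes with state L or M stayed within 1.5 times under every alternative run for them. The Lhx1 difference at 8 weeks changed sign, at -0.041 with the replicate block, -0.87 with WT and HET pooled, -0.20 without WT replicate 3, -0.59 without βEedKO replicate 1 and -0.40 without both replicates numbered 1, it ranged from -0.59 to 0.30 without 1 library, and it passed the threshold in none of these. Of 284 single-gene values under alternatives at both ages, 253 kept their direction and side of the threshold, 13 lost the call, 13 gained it and 5 changed sign. Lhx4 had no DESeq2 adjusted p at 25 weeks. Over all genes, calls at 8 weeks went from 80 higher and 1 lower to 0 and 0 with the block, and to 358 and 35 with DESeq2. They went to 133 and 4 of 30748 genes with no filter, and to 431 and 72 of 18828 with WT and HET pooled. At 25 weeks they went from 856 and 378 to 591 and 435 with the block. For the interaction they went from 17 and 20 to 166 and 174 with DESeq2 and to 96 and 108 with WT and HET pooled. The cause of these changes was not tested. With 2 βEedKO libraries at 25 weeks, leaving out 1 leaves a single library that is assumed to vary as the other groups do. Genes with under 4 reads in a group are limited by depth, most of all in the WT library of 4645393 counts.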

Other observations

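Lhx8 was counted in a single HET library of 8 weeks, at 42 reads in replicate 2 (1.86 CPM) against 0 and 0 reads in the other HET replicates and 0, 3 and 0 in WT. Mesenchymal markers summed to 88.4 CPM in that library and 37.6 and 44.6 in the other HET replicates of that age. They also summed to 91.2 CPM in WT replicate 1 and to 174 and 88.4 in βEedKO replicates 1 and 4 of 8 weeks, with 0 Lhx8 reads in each. Endothelial markers summed to 314 against 218 and 264 CPM in HET, 174 to 244 in WT and 241 to 285 in βEedKO. Duct markers were at 236 against 299 and 326 CPM in HET. The part of these cells in the Lhx8 reads was not tested. Of the listed partners that failed the filter, Otx2, an eye and forebrain factor, had 1 read in all 16 libraries.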
